A study of Mus musculus with 4 samples.

Results

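Channels that pass a depolarising inward current near the resting potential were followed at the level of their transcripts in mouse corticotropes and melanotropes, the pituitary cells that process pro-opiomelanocortin (POMC) into hormones. The set held 9 genes, chosen by their gene symbols: the hyperpolarisation-activated channels Hcn2, Hcn3 and Hcn4, the sodium leak channel Nalcn with its subunits Unc79 and Unc80, and the transient receptor potential (TRP) channels Trpc1, Trpm4 and Trpm7. All 9 of 9 were found among the 24063 genes of the deposited table, as 10 transcripts, with a second transcript for Trpm7 alone. Both cell types came from the pituitary of POMC-EGFP mice of strain C57B6, a transgenic line in which regulatory sequence of Pomc drives the fluorescent protein. The pituitary lobes were parted by dissection, corticotropes being cells of the anterior and melanotropes of the intermediate lobe, GFP-positive cells were sorted by FACS, and RNA depleted of ribosomal RNA was sequenced. There were 2 libraries per cell type, 4 in all, and the labels name no treatment and no age. Whether the replicates are separate animals or sorts is not stated, so p-values measure only the spread between these libraries, which may be technical.

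POMC cells fire spontaneous action potentials, and both hormone release and its control by hypothalamic input depend on that activity. HCN channels open on hyperpolarisation, carry the mixed sodium and potassium current called Ih, and are gated directly by cyclic AMP. NALCN is a channel that carries a background sodium leak, and it works in a complex with the large scaffold proteins UNC79 and UNC80 and the FAM155A subunit. TRPC1 is a subunit of receptor-operated cation channels, TRPM4 is a calcium-activated channel for monovalent cations, and TRPM7 is a divalent cation channel fused to a protein kinase.

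The libraries carried the identity that their labels give. Melanotrope markers (Pax7, Pcsk2, Drd2, Oacyl and Gulo) were higher in melanotropes for 5 of 5 genes. Their summed levels were 178 to 233 FPKM in corticotropes and 1418 to 1597 in melanotropes. Corticotrope markers (Crhr1, Avpr1b and Nr3c1) were lower for 3 of 3. Avpr1b reached the test's filter of 1 FPKM in 2 libraries through corticotropes alone, so it could not come out higher. Of all tested genes 19.3% were called higher and 18.0% lower in melanotropes. FPKM is a read density per kilobase of transcript, and the deposited columns have nearly equal sums (729482 to 729485). The values implied 97700000 to 187400000 reads per library over the longest transcript of each gene. The members rested on 567 to 90379 implied reads per library. All Pomc transcripts together took 27.2% to 27.8% of the FPKM summed over all transcripts in corticotropes and 49.7% to 50.9% in melanotropes. Exons that transcripts share count once for each of them, so this is a share of that sum and not of the RNA. Since the deposited sums are nearly equal, less was left in melanotropes for all other genes. Unless named as deposited, values below are rescaled for this between libraries. They are given per library or as mean ± SD with n = 2 per cell type, and a log2 difference is melanotrope minus corticotrope on log2(FPKM + 1), which understates the change of low genes. Without rescaling the median gene lay at -0.42 on that scale, against 0.0080 with it.

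Hcn4 and Unc79 were higher in melanotropes and Trpc1 was lower, while Hcn2, Hcn3, Nalcn, Unc80, Trpm4 and Trpm7 did not pass the test (limma across 13044 genes, adjusted p below 0.05). The Unc79 difference turned to -0.16 on the deposited scale, and a p that misses the threshold does not show that levels were equal. That made 3 of 9 members, 33.3%, beside 37.3% of all genes tested. By direction the members' 2 higher and 1 lower stood beside 19.3% of genes called higher and 18.0% called lower. The libraries of the cell types did not overlap for 6 of 9 members (4 higher and 2 lower in melanotropes), beside 71.1% of all genes tested (36.5% higher and 34.6% lower). Without rescaling 6 members were called lower and 1 higher, beside 73.9% of genes (66.8% lower and 7.14% higher). With the replicate number as a block 4 members were called, beside 55.8% of genes (29.1% higher and 26.7% lower). The median log2 difference of the members was -0.033, beside 0.0080 for all tested genes, and the median size of a difference was 0.20, beside 0.22. All 9 members passed the expression filter of 1 FPKM in 2 libraries. In the authors' deposited table, whose test was run on the FPKM, the 10 transcripts all had a false discovery rate of 1, and 2.28% of its transcripts were under 0.05. The log2 fold changes in the authors' deposited table were 1.28 for Hcn4, 0.27 for Unc79 and -0.64 for Trpc1.

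**Figure D1:**
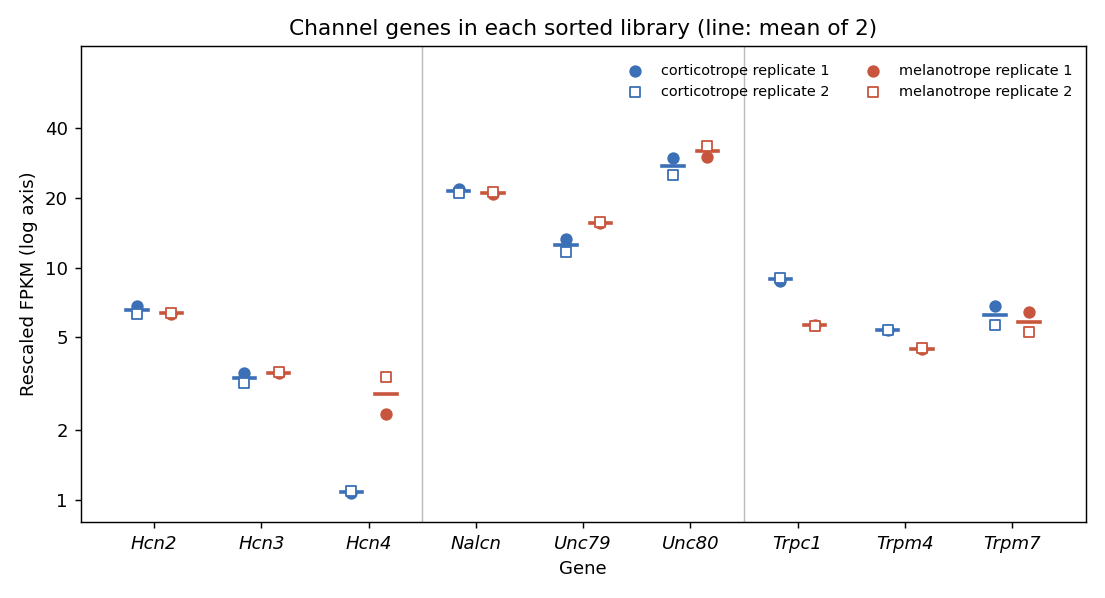
Rescaled FPKM (log axis) of the 9 channel genes in each library. Circles are replicate 1, squares replicate 2, and lines are means of 2. Hcn4 shows the widest gap between cell types, from about 1.08 to 2.85 FPKM, Trpc1 and Unc79 show smaller ones, and the Nalcn points of both cell types lie between 20.7 and 21.9.

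The promoters of the members that passed are shown because they are the sequences upstream of transcripts that moved in different directions between the cell types. RefSeq entries on build GRCm38.p6 were found for 7 of 9 members, and the 250 bases before the annotated start are printed 5′ to 3′ on the gene's strand, for Hcn4 at chr9:58822699-58822948 (plus strand), for Unc79 at chr12:102948609-102948858 (plus strand) and for Trpc1 at chr9:95750349-95750598 (minus strand). Capitals mark matches on either strand to an E-box (CANNTG, bound by basic helix-loop-helix factors) or to the core of the cyclic AMP response element (TGACG).
Hcn4: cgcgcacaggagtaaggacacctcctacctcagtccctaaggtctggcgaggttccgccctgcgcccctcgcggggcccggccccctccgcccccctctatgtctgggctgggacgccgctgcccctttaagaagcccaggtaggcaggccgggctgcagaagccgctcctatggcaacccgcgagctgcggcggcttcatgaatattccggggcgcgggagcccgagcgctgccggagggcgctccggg
Unc79: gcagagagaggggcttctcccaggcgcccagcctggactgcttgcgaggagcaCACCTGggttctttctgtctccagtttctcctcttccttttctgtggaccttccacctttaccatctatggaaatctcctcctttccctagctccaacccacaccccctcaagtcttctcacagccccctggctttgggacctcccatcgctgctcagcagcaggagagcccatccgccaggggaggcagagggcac
Trpc1: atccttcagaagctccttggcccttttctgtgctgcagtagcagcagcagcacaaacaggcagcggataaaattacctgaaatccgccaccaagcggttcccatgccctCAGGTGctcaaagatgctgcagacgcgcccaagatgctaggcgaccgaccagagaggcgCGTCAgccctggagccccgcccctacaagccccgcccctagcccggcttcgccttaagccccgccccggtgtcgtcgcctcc

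Hcn4 had 25 CpG dinucleotides in this window and Trpc1 had 17, whereas Unc79 had 4, beside a median of 6 over 27025 RefSeq promoters of the same length. An E-box match was present upstream of Unc79 and Trpc1 and absent from the Hcn4 window, and 66.0% of all promoters hold one. The TGACG core was matched in Trpc1 alone of the 3, beside 17.9% of all promoters. The RefSeq start of Hcn4 lies 563 bases upstream of the start of the deposited transcript, and the Trpc1 starts are 10 bases apart. These matches describe the letters and are not measured binding sites.

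Of the HCN genes, the one that passed the test was Hcn4, the lowest of the 3 per length in both cell types. Hcn2, the channel of intermediate opening speed that is widespread in brain and heart, was at 6.81 and 6.32 FPKM in the corticotrope libraries, with melanotropes at 6.30 and 6.40. These libraries overlap, and the log2 difference of -0.04 (SE 0.08, 95% interval -0.24 to 0.16) did not pass the test (limma adjusted p = 0.729). On the deposited scale Hcn2 was called lower, at -0.46 (limma adjusted p = 0.00733). Hcn2 lies on chromosome 10 (79716634 to 79736108, mm10) in 8 exons, as GENCODE annotates the gene (exon counts and overlaps below are also from GENCODE).

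Hcn3, a slow subunit that responds weakly to cyclic AMP, was at 3.50 and 3.18 FPKM in corticotropes and 3.51 and 3.55 in melanotropes. The melanotrope libraries sat just above the corticotrope ones, with a log2 difference of 0.06 (95% interval -0.15 to 0.28, limma adjusted p = 0.606). On the deposited scale Hcn3 turned to -0.32 and was called lower (limma adjusted p = 0.0341). The Hcn3 gene (chromosome 3, 89146775 to 89160157, 8 exons) shares 10 exonic bases with Pklr on the other strand, and Pklr stood at 0.0883 ± 0.0151 and 0.0945 ± 0.0125 FPKM.

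Hcn4, the slow and strongly cyclic AMP-sensitive channel of the sinoatrial pacemaker, was at 1.07 and 1.09 FPKM in corticotropes and at 2.33 and 3.38 in melanotropes. The groups did not overlap, and the melanotrope libraries differed more from each other than the corticotrope pair did. The ratio of means was 2.64, and the log2 difference was 0.88 (SE 0.15, 95% interval 0.52 to 1.24, limma adjusted p = 0.00618). It stayed positive on the deposited scale, at 0.57. The reads behind these values numbered 567 and 1100 in corticotropes and 1685 and 2452 in melanotropes. Without the expression filter Hcn4 missed the threshold (adjusted p = 0.0863, range over 16 alternatives 2.3e-05 to 0.0863). The deposited Hcn4 model spans chromosome 9, 58823512 to 58860955, in 8 exons.

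Shares of the summed FPKM of Hcn2, Hcn3 and Hcn4 within a library do not depend on scaling between libraries. Hcn2 made up 59.8% and 59.7% of it in corticotropes and 51.9% and 48.0% in melanotropes. Hcn3 held 30.4% ± 0.517 in corticotropes and 27.8% ± 1.62 in melanotropes. Hcn4 made up 9.43% and 10.3% in corticotropes and 19.2% and 25.3% in melanotropes. None of the 3 shares overlapped between the cell types, but they add up to the whole and are not separate observations. The Hcn3 share was lower in melanotropes although its rescaled FPKM was not (3.34 ± 0.228 in corticotropes, 3.53 ± 0.0266 in melanotropes). Per length the order in each of the 4 libraries was Hcn2, Hcn3 and Hcn4, with Hcn4 close below Hcn3 in melanotrope replicate 2. With 2 libraries against 2 an exact permutation test cannot go below p = 0.333, so these shares are given without a test.

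**Figure D2:**
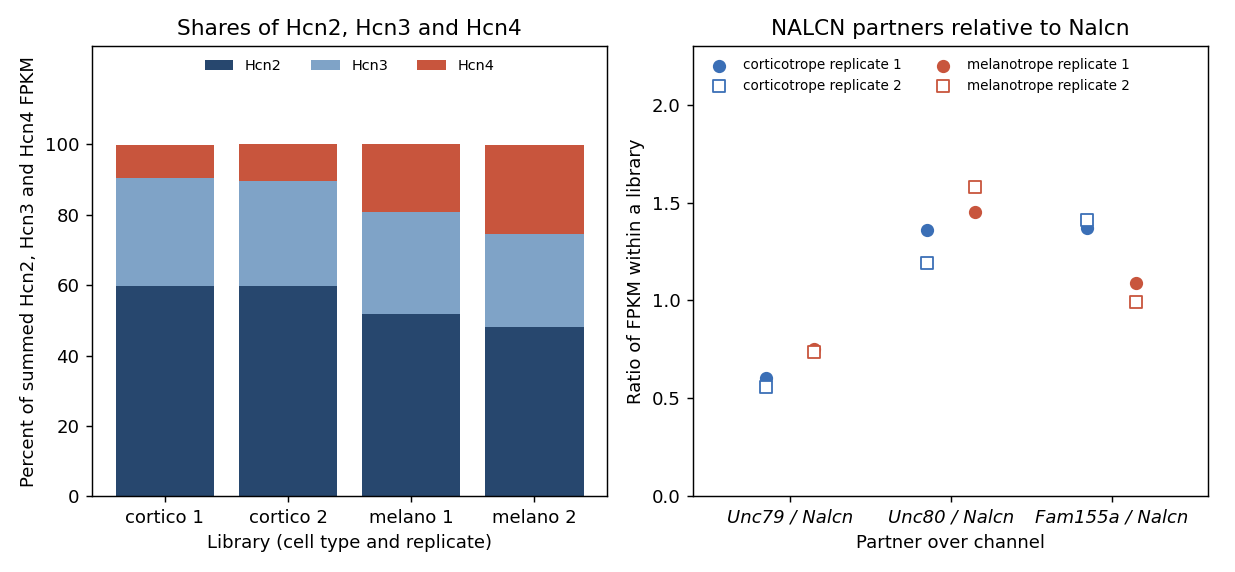
Left, percent of the summed FPKM of Hcn2, Hcn3 and Hcn4 held by each in each library (bars start at 0). Right, FPKM of the NALCN partners divided by that of Nalcn in the same library, circles for replicate 1 and squares for replicate 2. The Hcn4 share is 9.43% to 10.3% in corticotropes and 19.2% to 25.3% in melanotropes, Unc79 relative to Nalcn is higher in melanotropes, and Fam155a relative to Nalcn is lower.

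Of the leak channel complex, Unc79 was higher in melanotropes and the partner Fam155a lower, while Nalcn itself did not pass the test. Nalcn (chromosome 14, 123276641 to 123627144, 44 exons), the pore-forming subunit, was at 21.9 and 21.0 FPKM in corticotropes and 20.7 and 21.2 in melanotropes. The libraries overlap, and the interval of the log2 difference ran from -0.21 to 0.14 around -0.03 (limma adjusted p = 0.743). On the deposited scale Nalcn was called lower, at -0.50 (limma adjusted p = 0.00299).

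Unc79 (chromosome 12, 102948859 to 103183997, 49 exons), a scaffold needed for the leak current in neurons, was at 13.2 and 11.7 FPKM in corticotropes and at 15.5 and 15.7 in melanotropes. The groups did not overlap, the ratio of means was 1.25, and the log2 difference was 0.30 (SE 0.08, 95% interval 0.09 to 0.51, limma adjusted p = 0.0379). The call was lost without corticotrope replicate 2 (log2 difference 0.22, adjusted p = 0.167), melanotrope replicate 1 (0.31, adjusted p = 0.116) or melanotrope replicate 2 (0.29, adjusted p = 0.131), and on the deposited scale the difference was -0.16 (adjusted p = 0.209; range over 16 alternatives 0.00381 to 0.209). The annotated Unc79 exons share 84 bases with Gm27976, a small RNA gene on the same strand.

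Unc80 (chromosome 1, 66468447 to 66699148, 65 exons), the bridge between UNC79 and the channel, had the highest level of the 9 genes. It was at 29.7 and 25.1 FPKM in corticotropes and 29.8 and 33.4 in melanotropes, with a log2 difference of 0.20 (95% interval -0.06 to 0.47, limma adjusted p = 0.195). The groups did not overlap, but replicate 1 of corticotropes and of melanotropes were close to each other, and the sign turned on the deposited scale (-0.27). The difference was 0.32 without corticotrope replicate 1, 0.085 without corticotrope replicate 2 and 0.12 without melanotrope replicate 2, and it passed the test in none of these fits.

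Within a library the ratio of Unc79 to Nalcn was 0.605 and 0.557 in the corticotrope libraries, against 0.751 and 0.738 in melanotropes. The ratio of Unc80 to Nalcn was 1.36 and 1.19 against 1.45 and 1.58. Both ratios were higher in each melanotrope library than in either corticotrope library, whatever the scaling. An exact permutation test of 2 libraries against 2 cannot go below p = 0.333, so ratios to Nalcn are given without a test. In rescaled FPKM the libraries of the cell types did not overlap for 71.1% of all tested genes. The fourth subunit of the channel complex, Fam155a, went the other way: it was lower in melanotropes at 29.8 ± 0.203 against 21.8 ± 1.01 FPKM (log2 difference -0.44, limma adjusted p = 0.0062), and its ratio to Nalcn was 1.37 and 1.41 against 1.09 and 0.991. Fam155a passed the test under each of the 16 alternatives, the deposited scale included.

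**Figure D3:**
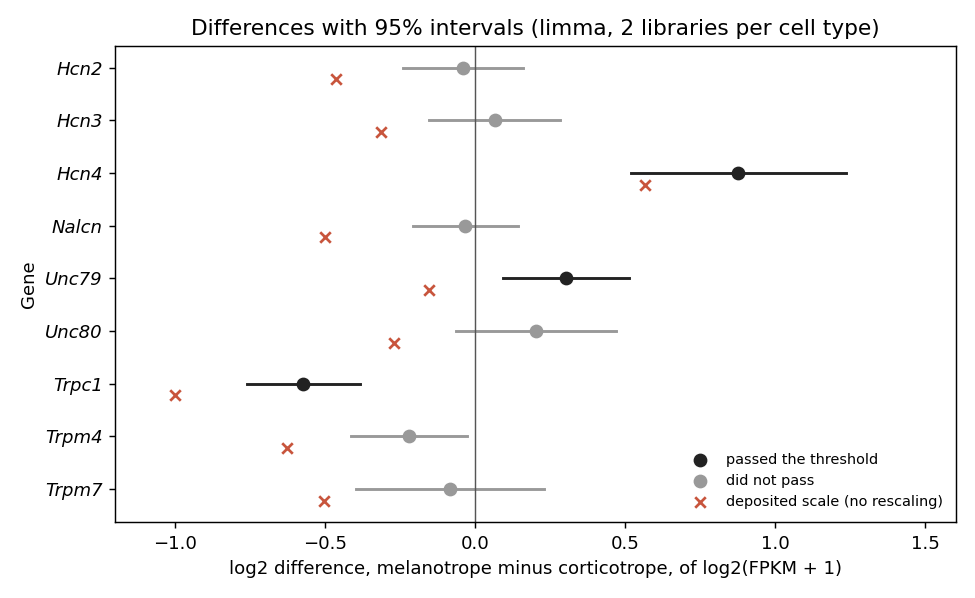
Log2 differences (melanotrope minus corticotrope, log2(FPKM + 1)) with 95% limma intervals for the 9 channel genes. Black points passed an adjusted p of 0.05 and grey points did not; crosses give the difference without rescaling, where 8 of 9 lie below 0 and Hcn4 alone stays above.

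Among the TRP channels Trpc1 was lower in melanotropes. Trpc1 (chromosome 9, 95706629 to 95750358, 13 exons) was at 8.74 and 9.03 FPKM in corticotropes and at 5.67 and 5.61 in melanotropes. The pairs were tight and far apart, with a ratio of means of 0.635 and a log2 difference of -0.57 (SE 0.08, 95% interval -0.76 to -0.39, limma adjusted p = 0.00273). It was lower and past the threshold under each of the 16 alternatives, with differences from -1.001 to -0.38.

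Trpm4 (chromosome 7, 45303155 to 45333780, 25 exons), which lets calcium entry depolarise the cell, was at 5.39 and 5.37 FPKM in corticotropes and 4.45 and 4.49 in melanotropes. The groups did not overlap and the replicates were close, but the log2 difference of -0.22 (SE 0.08, 95% interval -0.42 to -0.03) missed the threshold after adjustment (limma adjusted p = 0.0765). It passed with the replicate number as a block (limma adjusted p = 0.0288) and on the deposited scale (-0.63, limma adjusted p = 0.00221), with adjusted p up to 0.272 over the 16 alternatives. The ratio of means was 0.832.

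Trpm7 (chromosome 2, 126791558 to 126876261, 39 exons), the channel kinase linked to magnesium balance, was at 6.84 and 5.64 FPKM in corticotropes and at 6.40 and 5.25 in melanotropes. Its libraries overlap, and replicate 1 was above replicate 2 in both cell types by more than the cell types differed. The log2 difference was -0.08 (95% interval -0.40 to 0.23, limma adjusted p = 0.638), and on the deposited scale Trpm7 was called lower, at -0.50 (limma adjusted p = 0.0268). The second Trpm7 transcript is 3 bases shorter than the first and carried nearly the same deposited values, 8.22 and 6.49 against 5.53 and 4.26 FPKM, and its log2 difference was also -0.08.

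Among the relatives of the members, TRP genes passed the test in each direction. Of 24 further TRP family genes 10 passed the expression filter, of which 2 were higher and 3 lower in melanotropes, with a median log2 difference of -0.06 over the 10. Beside these counts, 19.3% of all tested genes were called higher and 18.0% lower. Trpm3, a heat- and steroid-sensitive channel, was higher at 9.24 ± 0.356 against 23.6 ± 0.0446 FPKM (log2 difference 1.27, limma adjusted p = 0.000163). Trpc7, a diacylglycerol-sensitive channel, was higher at 0.635 ± 0.163 against 4.12 ± 0.648 FPKM (log2 difference 1.64, limma adjusted p = 0.000448).

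Mcoln3, a cation channel of endosomes and lysosomes, was lower at 23.0 ± 2.16 against 0.179 ± 0.0416 FPKM (log2 difference -4.34, limma adjusted p = 2.2e-05). Trpc5, lower at 8.40 ± 2.36 against 0.148 ± 0.00164 FPKM, and Trpc4, lower at 1.81 ± 0.368 against 0.440 ± 0.0703 FPKM, encode the subunits with which TRPC1 is known to form mixed channels. Their log2 differences were -3.01 and -0.96 (limma adjusted p = 0.000173 and 0.00251). These corticotrope genes leave the test when 1 corticotrope library is left out, because the filter then needs a melanotrope library at 1 FPKM, so the lower count was 0 without corticotrope replicate 1 or 2 (7 tested). Trpc7 leaves it likewise, so the higher count was 1 without melanotrope replicate 1 or 2 (9 tested), and on the deposited scale 6 of the 10 were lower and 2 higher. Genes that reached the filter in 1 cell type alone could come out in 1 direction only. These counts therefore describe the list and support nothing further. Trpv5 and Trpa1 were listed at 0 in all 4 libraries.

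The cyclic nucleotide-gated channels, which like HCN channels bind cyclic nucleotides, were low. Of 6 genes 2 passed the filter: Cnga3 was higher in melanotropes at 0.340 ± 0.115 against 1.87 ± 0.518 FPKM (log2 difference 1.09, limma adjusted p = 0.00323), and Cngb1 was lower at 3.30 ± 0.206 against 1.28 ± 0.0759 FPKM (-0.91, limma adjusted p = 0.00103). Beside these, 19.3% of all tested genes were called higher and 18.0% lower. Cnga3 passed the filter through melanotropes alone, so it could not come out lower. Without melanotrope replicate 1 or 2 Cnga3 was not tested, and without the filter it missed the threshold (adjusted p = 0.0631). Of the 4 HCN partner genes, Pex5l, which encodes the HCN trafficking subunit TRIP8b, alone passed the filter, at 13.7 ± 1.11 against 13.1 ± 0.794 FPKM (log2 difference -0.06, limma adjusted p = 0.648).

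**Figure D4:**
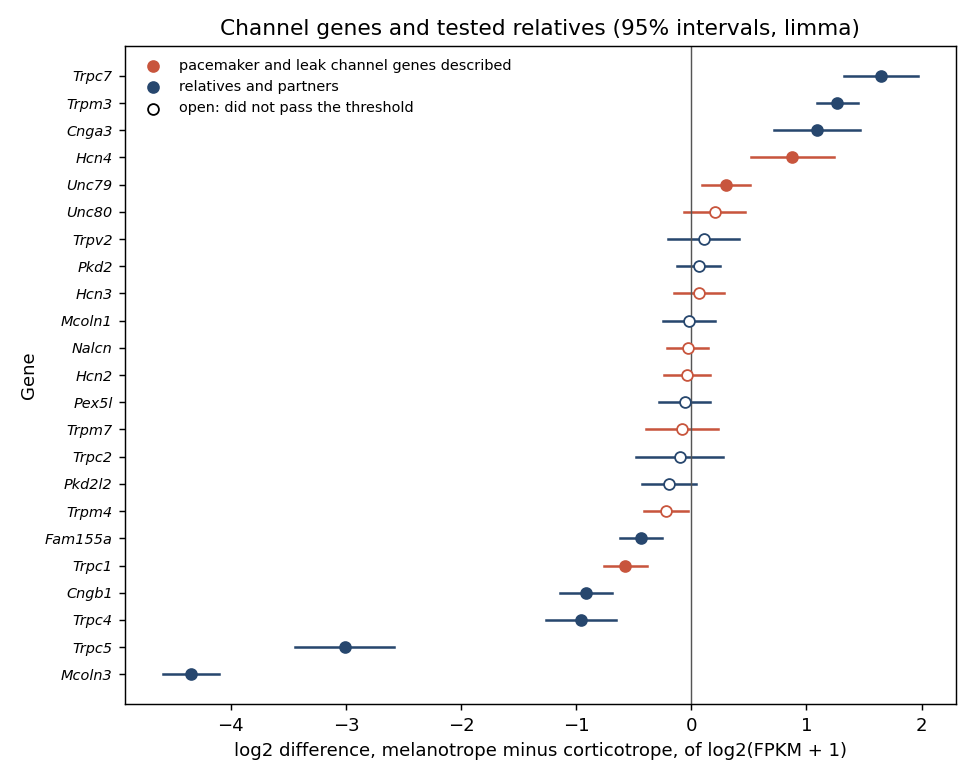
Log2 differences with 95% limma intervals for the 9 channel genes (red) and their tested relatives and partners (blue), sorted by size. Filled points passed an adjusted p of 0.05, open points did not. The 9 genes lie between -0.57 and 0.88, inside the span from Mcoln3 at -4.34 to Trpc7 at 1.64.

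Per length, the members kept nearly the same order in both cell types. In corticotropes the order of FPKM was Unc80, Nalcn, Unc79, Trpc1, Hcn2, Trpm7, Trpm4, Hcn3 and Hcn4, and the ranges of neighbouring genes overlapped for Hcn2 and Trpm7 alone. In melanotropes Trpc1 dropped below Hcn2 and Trpm7, and the ranges overlapped for Hcn2 with Trpm7 and for Trpm7 with Trpc1. Among all tested genes the mean level of Unc80 stood at the 84.7 percentile in corticotropes and the 86.6 in melanotropes, Nalcn at 79.3 and 78.0, and Hcn4 at 3.75 and 20.1. The ratio of Hcn2 to Nalcn was 0.306 ± 0.00741 in corticotropes and 0.303 ± 0.00264 in melanotropes.

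The genes nearest to Hcn4 in level across the 4 libraries, by Euclidean distance on log2(FPKM + 1), were Smoc1 (0.075), a secreted calcium-binding matrix protein, Pip5k1b (0.23), a lipid kinase, and Fam81a (0.24). Smoc1 was at 1.14 ± 0.0720 FPKM in corticotropes and 2.88 ± 0.701 in melanotropes. Nearest to Trpc1 were Traf3ip2 (0.090), an adaptor of interleukin 17 signalling, Wdr60 (0.094), a dynein chain of cilia, and 2810025M15Rik (0.10). Traf3ip2 was at 8.63 ± 0.0176 FPKM in corticotropes and 5.86 ± 0.111 in melanotropes.

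Markers of other cells moved between the same libraries. Genes of other anterior lobe hormone lineages were lower in melanotropes for 12 of 12. Of all tested genes 19.3% were called higher and 18.0% lower. Summed levels of these lineage genes were 5620 to 5855 FPKM in corticotropes and 14.6 to 62.8 in melanotropes, and none was at 0 in all libraries. Tshb, Pou1f1, Ghrhr, Gnrhr, Nr5a1, Foxl2 and Dlk1 passed the filter through corticotropes alone, so they could not come out higher. Of the lists that follow, Emcn, Pecam1 and Hba-a1 also passed through corticotropes alone, and Cx3cr1 and Cd68 through melanotropes alone. Posterior lobe and glial markers were higher for 3 and lower for 1 of 4 tested (of 7; 4 higher and 0 lower without the filter, and 2 higher and 1 lower of 3 without melanotrope replicate 1 or 2), with sums of 23.7 to 25.5 against 33.8 to 38.7 FPKM, and Rax, at 0.0171 ± 0.0125 against 2.83 ± 0.154 FPKM, passed the filter through melanotropes alone. Slc1a3 was called higher, at 1.815 ± 0.362 against 12.58 ± 1.921 FPKM, and Vim lower, at 19.79 ± 0.378 against 10.8 ± 1.497 FPKM. The other glial markers stayed below the filter and were not tested, and they did not move together. Gfap was higher, at 0.0844 ± 0.00268 against 0.368 ± 0.0335 FPKM. Aqp4 was lower, at 0.8757 ± 0.165 against 0.6178 ± 0.0784 FPKM, and the S100b libraries overlapped. Endothelial markers were lower for 3 of 4 tested (of 5; 2 of 2 without corticotrope replicate 1, 1 of 2 without corticotrope replicate 2, 2 of 4 without melanotrope replicate 2 and 0 of 5 without the expression filter), with sums of 12.0 to 17.9 against 3.77 to 5.59 FPKM. Blood and immune markers were higher for 1 and lower for 2 of 4 tested (of 5), with sums of 19.7 to 25.3 against 4.57 to 6.33 FPKM. The lower genes were the haemoglobin genes Hba-a1 (4.997 ± 0.439 against 0.605 ± 0.304 FPKM) and Hbb-b1 (16.03 ± 3.54 against 1.865 ± 0.998 FPKM). The immune markers Cx3cr1 (0.3965 ± 0.00067 against 1.408 ± 0.190 FPKM, called higher) and Cd68 (0.902 ± 0.0310 against 1.398 ± 0.263 FPKM, not called) went the other way. The higher count of that list was 0 without melanotrope replicate 1 or 2 and with a filter on the mean, and 2 with the replicate block. Its lower count was 1 without corticotrope replicate 1 or 2 and without the filter. The part of these cells in the Hcn4, Unc79 and Trpc1 differences was not tested, and in these sorted pools fewer cells of a type and less RNA per cell cannot be told apart.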

How the data were processed

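The authors computed FPKM per RefSeq transcript on mm10 by exon counting in HOMER (analyzeRepeats), per the file headers. The deposited log2 fold changes, p-values and FDR came from getDiffExpression run on those FPKM, per the file headers. The deposited "fold change" column, which has the range of a score and is 10 to the power of the log2 value, was not used. The submitters' processing notes name TopHat, HOMER, edgeR, mm10 and GRCm38. For tool versions and strand use, the sources used here give nothing.

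Columns were divided by unweighted trimmed-mean-of-M-values factors (trim 30% of M, 5% of A; genes with a mean of at least 1 FPKM) of 1.21, 1.16, 0.871 and 0.817. Each gene's longest transcript was tested if at 1 FPKM or more in 2 libraries, with limma 3.58.1 in R 4.3.3 (trend, two-sided, Benjamini-Hochberg) on log2(FPKM + 1), with 2 residual and 3.77 prior degrees of freedom. The gene restriction of the factors was set after the values were seen. Read counts were implied from the spacing of low values, of which 99.0% to 100% were whole within 0.1 read. On simulated data for this comparison (13044 genes), the test called 100 of 100 genes simulated with a log2 change of 1, 100 of 100 with a change of 2, and 13 unchanged genes. The 200 changed genes were drawn above a set mean level that Hcn2, Hcn3, Hcn4, Trpm4 and Trpm7 do not reach. The simulated noise was normal and independent between libraries. The check therefore does not cover genes that low, or differences smaller than 1, among them those of Hcn4, Unc79 and Trpc1.

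Members, lists and tests were chosen with earlier results of these data known. All 9 members were named, and list members by the 2 smallest adjusted p per direction. Trpc4, Pklr, Gm27976, Gfap, Aqp4, S100b, Cd68 and genes listed at 0 were named after their values were seen. So were the genes said to pass the filter through corticotropes or melanotropes alone. Libraries were grouped by their titles. Some genes of the HCN and TRP families are not reported here and were left out of the lists and shares.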

Additional observations from a re-analysis of the deposited data

How the results depend on the processing

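The 16 alternatives for each result included 2 scalings added after the data were seen. Trpc1 kept its direction and call in all 16, and Hcn4 in 15 (the exception is the fit without an expression filter). Without rescaling 9726 genes were called (939 higher and 8787 lower, against 2520 and 2344) and 7 members (1 higher and 6 lower), with Hcn3 at -0.32, Unc79 at -0.16 and Unc80 at -0.27, so the directions of these 3 rest on the scaling. With every transcript tested 7598 of 19849 were called, and without a filter 1 member was, Trpc1. Without a filter 4 of the 24 further TRP genes were higher, against 2. Leaving out 1 library gave 3046 to 3449 genes against 4864 and 2 to 3 members, the lowest without melanotrope replicate 1 (3046) and without melanotrope replicate 2 (3077). Over those fits Hcn2 ranged from -0.087 to 0.0067, above 0 without corticotrope replicate 1, and Trpm7 from -0.21 to 0.038, above 0 without corticotrope replicate 1 (0.036) or melanotrope replicate 2 (0.038). Unc79 also missed the threshold without a filter (adjusted p = 0.111) and with equal sums of all genes other than Pomc (0.30, adjusted p = 0.0742). The labels give no pairing beyond equal replicate numbers, and deviations of equally numbered libraries correlated at 0.52 across genes. With replicate number as a block 7277 genes and 4 members were called, Trpm4 being the addition (adjusted p = 0.0288). The shallowest value, Hcn4 in corticotrope replicate 1, rested on 567 implied reads.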
